A study of Danio rerio with 8 samples.

Results

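The Krüppel-like factor genes described here are *klf13* (ENSDARG00000061368) and 9 relatives, *klf2a*, *klf2b*, *klf3*, *klf6a*, *klf9*, *klf11a*, *klf11b*, *klf12b* and *klf15*, out of 31388 genes in the deposited table. *klf13* was chosen by its difference between the 2 sorted populations in these same libraries, and the relatives were chosen by gene symbol with that result known, so their differences between the populations are given as a description and without a *p*-value. The 10 names matched 11 rows. Both *klf11* genes carry the symbol KLF11 and are given by their identifiers, and 2 rows carry the symbol KLF12, of which the one that is *klf12b* could not be told from its relative, so that both are shown. *klf3*, *klf6a*, *klf9* and *klf15* are listed under the human-style symbols KLF3, KLF6, KLF9 and KLF15.

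Ventricular cardiomyocytes of adult zebrafish, 6 to 9 months old, were sorted by fluorescence and measured by RNA-Seq. The fish carried both *tbx5a:GFP* and *myl7:nuc-dsRed*. In them the *myl7* promoter drives a red nuclear protein in cardiomyocytes, and GFP reports *tbx5a*, a T-box transcription factor gene of the heart. Cells with both colours were collected as *tbx5a*+ cardiomyocytes and cells with red nuclei alone as *tbx5a*- cardiomyocytes, with no further treatment of either. A replicate was a pool of 5 hearts, and the labels put the 4 *tbx5a*+ and 4 *tbx5a*- libraries in 4 pairs, numbered 2, 8, 9 and 10. The gate rests on the reporters, so each library is a mixture of all red-nucleated ventricular cells on its side of the GFP threshold.

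Krüppel-like factors are transcription factors that bind GC-rich and CACCC elements with zinc fingers at the end of the protein. From work in mammals they are grouped by partners. KLF9, KLF11 and KLF13 bind the Sin3A corepressor, KLF3 and KLF12 bind the CtBP corepressor, KLF2 and KLF6 act mainly as activators, and KLF15 stands apart. In frog embryos and rat cardiomyocytes KLF13 acts with GATA4 on natriuretic peptide promoters, and in the mouse heart KLF15 is induced by glucocorticoids and controls lipid and amino acid metabolism.

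The values are normalized expression values of the authors, on a scale on which 1 read was worth 0.859 to 1.19 units per library. By this step the libraries held 8076552 to 9491719 estimated reads in *tbx5a*+ and 7149188 to 9203770 in *tbx5a*- cardiomyocytes. *tbx5a*+ libraries had 13706 to 14983 genes above 0, and *tbx5a*- libraries had 12225, 13301, 11329 and 13793 in pairs 2, 8, 9 and 10, so that the *tbx5a*- libraries of pairs 2 and 9 stood lowest. Among 5664 tested genes with a mean of 10 to 60 units, these libraries listed 23.5% and 27.0% at 0, against 5.72% to 12.8% in the other 6. *tbx5a* itself had 4919, 3494, 3197 and 4919 units in the *tbx5a*+ libraries of pairs 2, 8, 9 and 10, and 442, 346, 90.5 and 119 in the *tbx5a*- libraries.

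*klf13* had 360, 403, 315 and 343 units in the *tbx5a*+ libraries of pairs 2, 8, 9 and 10, and 51.5, 249, 61.7 and 176 in the *tbx5a*- libraries. Every *tbx5a*+ library stood above every *tbx5a*- library, and the *tbx5a*- libraries fell into a low set, pairs 2 and 9, and a higher set, pairs 8 and 10. It averaged 356 ± 36.7 units over *tbx5a*+ and 135 ± 95.1 over *tbx5a*- libraries (SD, *n* = 4 each), from 1457 and 548 estimated reads. The mean was thus 2.64 times as high in *tbx5a*+ cardiomyocytes. In these bulk libraries, fewer cells that express a gene and less of its RNA per cell cannot be told apart.

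**Figure D1:**
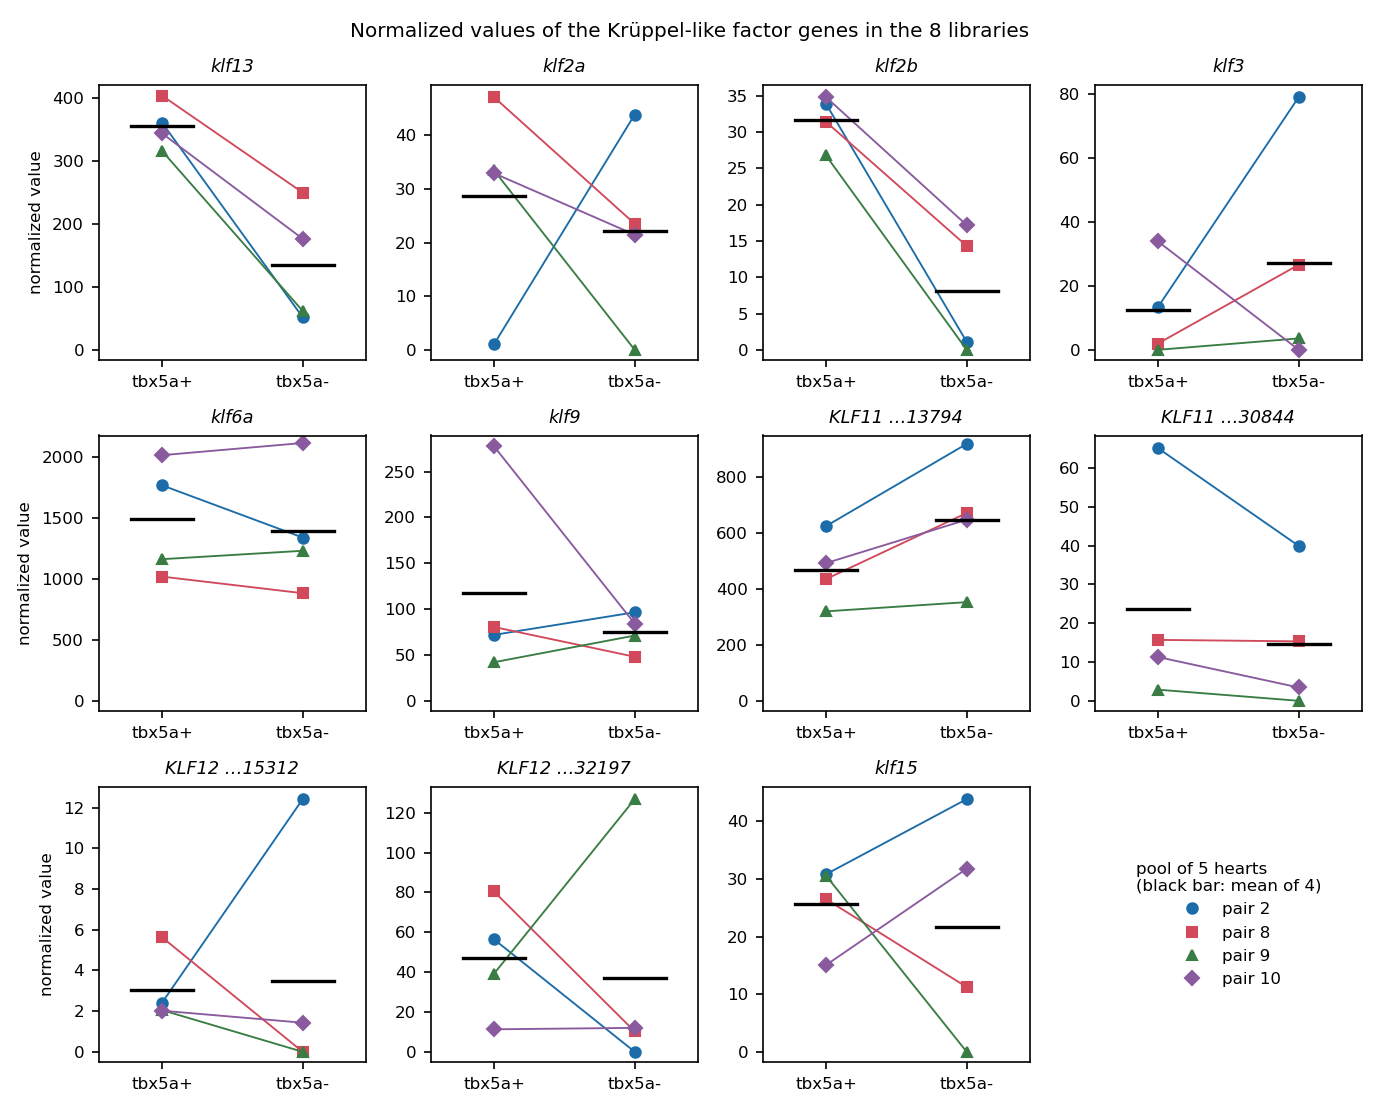
Normalized value (linear axis, from 0) of each Krüppel-like factor row in the 8 libraries, with *tbx5a*+ left and *tbx5a*- right in each panel, lines joining the libraries of a pair and black bars for the mean of 4. *klf13* and *klf2b* are higher in *tbx5a*+ cardiomyocytes with no overlap, whereas *klf6a* has the same order of pairs in both populations.

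The size of the *klf13* difference depended on the pair. On the log2(value + 1) scale it was 2.78 in pair 2, 0.69 in pair 8, 2.34 in pair 9 and 0.96 in pair 10. The 2 pairs with the larger differences were those whose *tbx5a*- libraries had the fewest genes above 0, and the part of that in the result was not tested. Without these 2 libraries the log2 fold change was 0.75, against 1.69 (standard error 0.43) with all 8. The median over all 13895 genes tested with all 8 libraries was 0.20. Without these libraries it was 0.036, over the genes that passed the same filter in the libraries left. Of 4371 tested genes with a mean of at least 100 units, 10.2% had the *tbx5a*- libraries of pairs 2 and 9 as their 2 lowest, as *klf13* did. The residual *tbx5a* level in the *tbx5a*- libraries of pairs 2, 8, 9 and 10 was 442, 346, 90.5 and 119. It was highest in pair 2, where *klf13* was lowest, and had the same order as *klf13* over pairs 8, 9 and 10. Any part of *tbx5a*+ cells in the *klf13* values of these libraries was not tested.

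*klf13* was also uneven in how much it varied within the populations, which is given as a description. Its SD of log2(value + 1) was 0.15 among *tbx5a*+ libraries, smaller than in 95% of the 200 tested genes nearest to it in mean, whose median was 0.38. Among *tbx5a*- libraries it was 1.11, larger than in 95% of the same genes, whose median was 0.51. The coefficient of variation was 10.3% in *tbx5a*+ and 70.6% in *tbx5a*- cardiomyocytes. These genes were matched on the mean over all 8 libraries, 245 units for *klf13*, which averaged 356 in *tbx5a*+ and 135 in *tbx5a*- libraries. They were thus not matched within a population, and *klf13* was chosen on these same values, so nothing further is read from these shares. The 4 *tbx5a*+ values of *klf13* lay close together. Its *tbx5a*- values were split between the libraries of pairs 2 and 9 and those of pairs 8 and 10.

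The flow-responsive factors *klf2a* and *klf2b* are known from zebrafish and mouse endothelium and endocardium, where blood flow induces them. *klf2b* had 33.9, 31.4, 26.8 and 34.8 units in the *tbx5a*+ libraries of pairs 2, 8, 9 and 10, and 1.1, 14.3, 0 and 17.2 in the *tbx5a*- libraries. The groups did not overlap, and the lowest *tbx5a*- values were again those of pairs 2 and 9, which rest on 1 and 0 reads. A value of 0 in that library allows up to 3 reads, or 3.56 units, by counting error alone. It averaged 31.7 ± 3.60 units over *tbx5a*+ and 8.15 ± 8.86 over *tbx5a*- libraries (SD, *n* = 4 each), from 130 and 35 estimated reads in all. The log2 fold change was 2.73 (standard error 1.26), and 0.96 without the *tbx5a*- libraries of pairs 2 and 9. Among *tbx5a*+ libraries the SD of log2 values was 0.16, smaller than in 98% of the 200 genes nearest in mean over all 8 libraries. That mean was 19.9 units for *klf2b*, against 31.7 in *tbx5a*+ libraries, so these genes were not matched within this population. The *tbx5a*+ values rest on 28 to 37 estimated reads each, where counting error is part of the spread, so nothing further is read from this SD.

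Its paralog *klf2a* did not share this pattern. *klf2a* had 1.03, 47.1, 33.5 and 32.9 units in *tbx5a*+ libraries, and 43.9, 23.5, 0 and 21.5 in *tbx5a*- libraries of pairs 2, 8, 9 and 10. It was lower in *tbx5a*+ cardiomyocytes in pair 2 and higher in the other 3 pairs, and the groups overlapped over nearly their whole range. Its log2 fold change of 0.55 (standard error 1.35) was -0.66 without the *tbx5a*- library of pair 9 and 1.61 without the *tbx5a*+ library of pair 2, so that single libraries set its sign.

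Since both *klf2* genes are endothelial genes elsewhere, the endothelial and endocardial markers are given beside them. The 19 marker rows summed to 178 to 280 units in *tbx5a*+ libraries and to 159 to 429 in *tbx5a*- libraries. Of these, 3 rows were at 0 in every library: *FLT4*, *aplnrb* and only 1 of the rows with the symbol *CLDN5*. The sum in the *tbx5a*+ libraries of pairs 2, 8, 9 and 10 was 274, 280, 185 and 178, against 429, 195, 159 and 364 in the *tbx5a*- libraries. The endothelial cadherin gene *cdh5*, named after its values were seen, had 90.8, 75.6, 8.59 and 80.0 units in *tbx5a*+ and 159, 58.3, 45.02 and 72.1 in *tbx5a*- libraries. The sum was highest in the *tbx5a*- library of pair 2, where *klf2a* had 43.9 units and *klf2b* 1.1. Other markers were not found in both populations: *erg* was at 0 in all *tbx5a*+ and *fli1a* in all *tbx5a*- libraries. RNA of some endothelial marker genes was thus present at a low level in both populations. Any part of endothelial cells in the *klf2* values was not tested.

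*klf6a*, the other activator, is induced by injury and early growth signals in mammalian cells. It had 1766, 1018, 1161 and 2013 units in the *tbx5a*+ libraries of pairs 2, 8, 9 and 10, and 1338, 882, 1229 and 2113 in the *tbx5a*- libraries. The value followed the pair more than the population: pair 10 was highest and pair 8 lowest in both. The log2 fold change was 0.11 (standard error 0.26), and 0.34 and -0.08 at the ends of its range with 1 library left out. The differences within pairs had an SD of 0.23, less than the SD of 0.47 among *tbx5a*+ and of 0.52 among *tbx5a*- libraries.

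**Figure D2:**
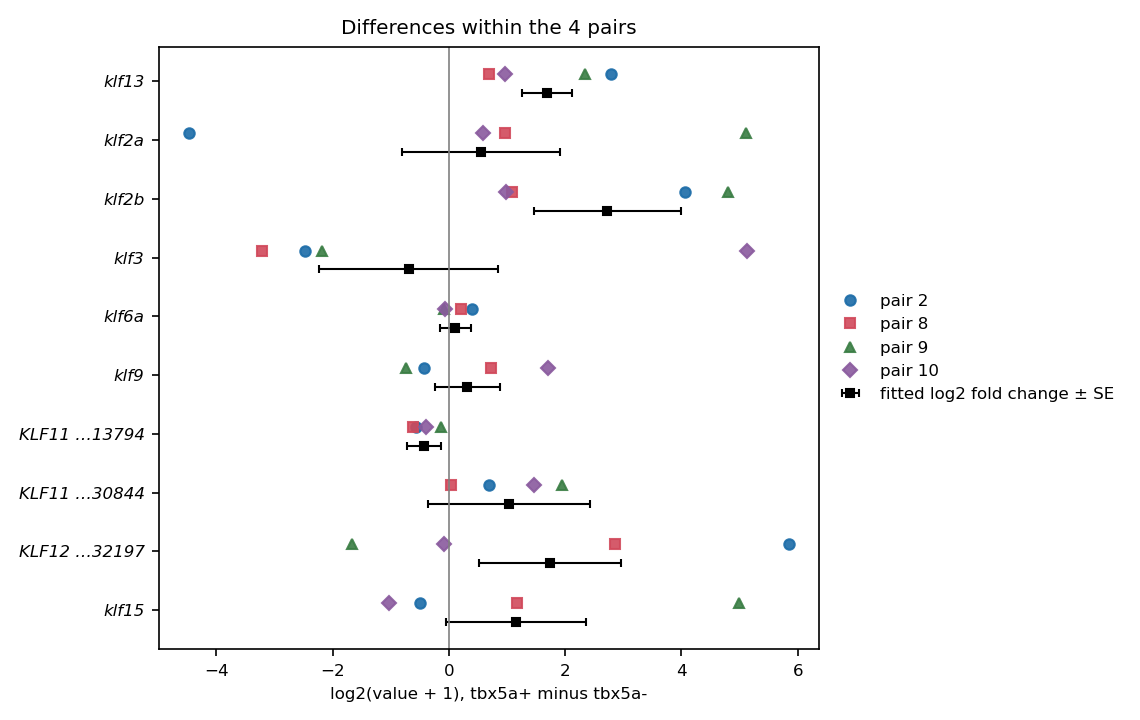
Difference in log2(value + 1) between the *tbx5a*+ and the *tbx5a*- library of each pair (coloured symbols) and the fitted log2 fold change with its standard error (black squares) for the 10 rows tested. The 4 pairs lie between -0.08 and 0.40 for *klf6a* and between -0.62 and -0.14 for the KLF11 row ENSDARG00000013794, and between -4.47 and 5.11 for *klf2a*.

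The differences among the pairs do not use the contrast between the populations and were tested for all genes with an *F* test of the pair terms in limma. Of the 13895 genes, 0.784% passed at an adjusted *p* of 0.05, and 0 of the 10 Krüppel-like factor rows tested did. *klf6a* came nearest, with an adjusted *p* of 0.089 from limma and rank 156 of all genes. The KLF11 row ENSDARG00000013794 followed at 0.32 and rank 424. Among 23 tested genes of the immediate early response, which cell dissociation also induces, 3 passed. They were *fosb* (adjusted *p* = 0.0047 from limma), *nr4a1* (0.015) and *egr1* (0.038), of which *fosb* and *egr1* are named because of this result. In other lists described below, 3 of 14 tested glucocorticoid response genes passed, 1 of 18 KLF15 target genes and 1 of 12 cardiomyocyte genes. *fosb* had 2889, 1265, 1881 and 3329 units in the *tbx5a*+ libraries of pairs 2, 8, 9 and 10, and 1390, 1092, 787 and 3663 in the *tbx5a*- libraries. The library of pair 10 was the highest of its population for *fosb*, *egr1*, *nr4a1* and *klf6a* alike. The first 3 of these were picked by this test in the same libraries. The lowest *tbx5a*- library was that of pair 9 for *fosb* and that of pair 8 for *klf6a*. Any part of cell dissociation in the *klf6a* values was not tested.

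*klf9*, *klf11a*, *klf11b* and *klf13* belong to the Sin3A-binding group. *klf9*, a hormone-induced gene that glucocorticoids and thyroid hormone raise in fish and mammals, had 71.9, 80.5, 42.1 and 278 units in the *tbx5a*+ libraries of pairs 2, 8, 9 and 10, and 96.5, 48.0, 71.1 and 84.2 in the *tbx5a*- libraries. The *tbx5a*+ library of pair 10 stood far above the other 7, which overlapped. The means of 118 ± 108 over *tbx5a*+ and 75.0 ± 20.7 over *tbx5a*- libraries (SD, *n* = 4 each) differ by this library. The log2 fold change of 0.32 (standard error 0.56) was -0.21 without it.

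The 2 KLF11 rows went in opposite directions. ENSDARG00000013794 had 625, 436, 320 and 493 units in the *tbx5a*+ libraries of pairs 2, 8, 9 and 10, and 920, 672, 353 and 648 in the *tbx5a*- libraries. It was lower in *tbx5a*+ cardiomyocytes in 4 of 4 pairs, as 5.38% of tested genes were, although the ranges overlapped because pair 9 was low in both populations. The differences were -0.56, -0.62, -0.14 and -0.39 on the log2 scale, and the log2 fold change was -0.43 (standard error 0.30). It was -0.23 without the *tbx5a*- library of pair 2, -0.69 without that of pair 9 and -0.53 without both, so that these libraries moved its size in opposite directions, and it was below 0 in each case. ENSDARG00000030844 had 65.2, 15.7, 2.87 and 11.3 units in *tbx5a*+ and 40.0, 15.3, 0 and 3.44 in *tbx5a*- libraries. All 4 pairs had more in *tbx5a*+ cardiomyocytes, as 9.54% of tested genes were, but by only 0.03 log2 units in pair 8. Its log2 fold change of 1.04 (standard error 1.39) was 0.075 without the *tbx5a*- library of pair 9. KLF11 is known in human cells as an early target of TGF-beta.

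The CtBP-binding members *klf3* and *klf12b* rested on few reads. *klf3* had 13.4, 1.96, 0 and 33.9 units in *tbx5a*+ and 79.0, 26.6, 3.56 and 0 in *tbx5a*- libraries of pairs 2, 8, 9 and 10. It was lower in *tbx5a*+ cardiomyocytes in 3 of 4 pairs and higher in pair 10, and the log2 fold change was -0.69 (standard error 1.54). The KLF12 row ENSDARG00000032197 had 56.5, 80.5, 39.2 and 11.3 units in *tbx5a*+ and 0, 10.2, 127 and 12.02 in *tbx5a*- libraries. Here the *tbx5a*- library of pair 9 was the highest of all, and the fitted log2 fold change of 1.74 (standard error 1.22) has the *tbx5a*- library of pair 2 at 0 behind it. It was 0.56 without that library. The ratio of the means, 1.26, was far smaller than the fitted value. The other KLF12 row, ENSDARG00000015312, had 2.02 to 5.63 units in *tbx5a*+ and 0 to 12.4 in *tbx5a*- libraries and was too low to be tested.

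*klf15* had 30.8, 26.5, 30.6 and 15.1 units in the *tbx5a*+ libraries of pairs 2, 8, 9 and 10, and 43.9, 11.2, 0 and 31.8 in the *tbx5a*- libraries. Pairs 8 and 9 had more in *tbx5a*+ cardiomyocytes, and pairs 2 and 10 had less. Its means of 25.7 ± 7.396 over *tbx5a*+ and 21.7 ± 19.8 over *tbx5a*- libraries (SD, *n* = 4 each) were close, whereas the log2 fold change of 1.16 (standard error 1.21) came from the *tbx5a*- library of pair 9 at 0 and was -0.02 without it.

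**Figure D3:**
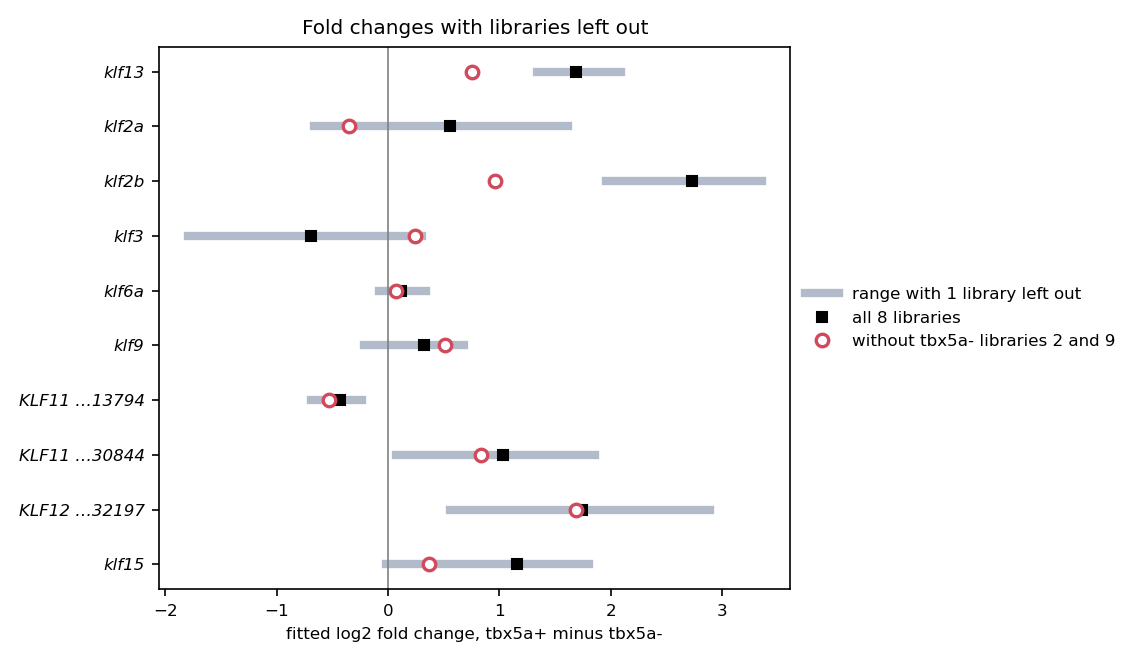
Fitted log2 fold change of each Krüppel-like factor row tested, with all 8 libraries (black squares), its range when any 1 library is left out (grey bars), and without the *tbx5a*- libraries of pairs 2 and 9 (red circles). The circle lies left of the bar for *klf13*, at 0.75, and for *klf2b*, at 0.96, and the bar crosses 0 for *klf2a*, *klf3*, *klf6a*, *klf9* and *klf15*.

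In the fit of all 13895 tested genes, 27 genes (0.194%) reached both an adjusted *p* of 0.05 and a log2 fold change of 1 in size, which is a call here, and 58 (0.417%) did when the pair was taken as a block. In simulated data the fit without the block called 3 of 50 genes changed 2-fold, 27 of 50 changed 4-fold and 24 of 50 changed 8-fold. A gene that was not called, here or in the lists below, may therefore still differ. Of the 10 Krüppel-like factor rows tested, 0 were called without the block and 1, *klf13*, with it. *klf13* and *klf2b* were the 2 rows whose groups did not overlap with *tbx5a*+ higher, which held for 2.32% of tested genes. As *klf13* was chosen on this contrast and the relatives with it in view, nothing is read from these counts.

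The other Krüppel-like factor genes and the SP genes were taken as families by symbol. Of 16 Krüppel-like factor symbols listed, 6 gave no row besides those of the members, and of 12 SP symbols 1 gave none. SP factors share the zinc finger type and the GC-rich sites of Krüppel-like factors. Of 21 such rows, 8 were at 0 in every library and 11 were tested, and none passed the test with limma, with the block or with limma-voom. None of the 11 had an unadjusted *p* under 0.05 from limma, a threshold that 7.06% of all tested genes passed. The median log2 fold change was 0.55 over the 5 other Krüppel-like factor rows, and -0.11 without the *tbx5a*- library of pair 2. Over the 6 SP rows it was 0.23, and -0.57 without the *tbx5a*- library of pair 9, so that single libraries set the direction of both. The median over all tested genes was 0.20. Among the other Krüppel-like factor rows, those with the lowest *p* were *KLF8*, a CtBP-binding repressor in mammals (1.58, adjusted *p* = 0.76 from limma), and a *KLF7* row, ENSDARG00000043821 (-0.26, adjusted *p* = 0.85 from limma). *KLF8* had 44.2, 61.8, 34.4 and 37.6 units in *tbx5a*+ and 41.7, 62.3, 0 and 17.2 in *tbx5a*- libraries of pairs 2, 8, 9 and 10, of which the *tbx5a*- libraries of pairs 9 and 10 stood below all others. The SP rows with the lowest *p* were *SP1*, a general activator (1.32, adjusted *p* = 0.75 from limma), and *SP5*, a Wnt target (0.74, adjusted *p* = 0.75 from limma). *SP1* had 55.8, 41.0, 45.7 and 34.2 units in *tbx5a*+ and 11.9, 10.9, 27.9 and 21.8 in *tbx5a*- libraries. These do not overlap, which held with *tbx5a*+ higher for 2.32% of tested genes. *klf6b*, *klf17*, *klf5l*, 1 KLF5 row, *SP6*, *SP7*, *SP9* and 1 SP8 row were those at 0.

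Of 19 tested genes of KLF corepressors and coactivators, which include the Sin3, CtBP and histone deacetylase genes, none was called, and the median log2 fold change was 0.18, close to that of all genes. The 1 gene with an unadjusted *p* under 0.05 was *wwp1*, a ubiquitin ligase that binds KLF factors in mammals (1.49, adjusted *p* = 0.70 from limma), and *CREBBP*, a histone acetyltransferase gene, came next (0.95, adjusted *p* = 0.80 from limma). Of 11 tested cardiac partner factors none was called, and the median was -0.01, with -0.09 to 0.08 over the alternatives. *gata4*, the partner of KLF13 in frog and rat, had 162, 189, 153 and 148 units in the *tbx5a*+ libraries of pairs 2, 8, 9 and 10, and 40.9, 127, 104 and 99.3 in the *tbx5a*- libraries. Its groups did not overlap, with *tbx5a*+ higher, as in 2.32% of tested genes. Its log2 fold change was 0.91, which limma did not call (adjusted *p* = 0.70). The other GATA rows of the list, *GATA5* and *GATA6*, had log2 fold changes of -0.07 and -0.48 and were not called either. *srfb*, a serum response factor gene, had 2.37 (adjusted *p* = 0.70 from limma).

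Of 13 tested genes upstream of *klf2* and *klf15*, such as those of the ERK5 and CCM pathways and the hormone receptors, none was called, and none had an unadjusted *p* under 0.05. The median was -0.26, but 0.14 without the *tbx5a*- library of pair 10, 0.03 with at least 5 CPM in 4 libraries and 0.01 without the *tbx5a*- libraries of pairs 2 and 9. *piezo1*, a stretch-gated channel gene, had a log2 fold change of -1.46 (adjusted *p* = 0.73 from limma), and the glucocorticoid receptor gene *NR3C1* one of 0.63 (adjusted *p* = 0.72 from limma). Of 14 tested glucocorticoid response genes none was called, 2 had an unadjusted *p* under 0.05 in each direction, and the median was -0.09, but 0.15 without the *tbx5a*- library of pair 8. *fkbp5*, a chaperone gene that glucocorticoids induce, had 548, 551, 590 and 1248 units in *tbx5a*+ and 115, 343, 443 and 769 in *tbx5a*- libraries of pairs 2, 8, 9 and 10. The *tbx5a*+ library of pair 10, in which *klf9* was highest, was also the highest *tbx5a*+ library for *fkbp5*. Among *tbx5a*- libraries *fkbp5* was highest in pair 10, but *klf9* in pair 2, at 96.5 units against 84.2 in pair 10. The summed values of the 15 glucocorticoid response rows were highest in pair 8 in both populations. *fkbp5* passed the test of differences among pairs (adjusted *p* = 0.038 from limma). Its log2 fold change of 1.01 between the populations did not pass (adjusted *p* = 0.63 from limma). *nfkbiaa*, an NF-kappaB inhibitor gene, had -1.08 (adjusted *p* = 0.29 from limma).

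Genes of branched-chain amino acid breakdown and other KLF15 targets of the mouse heart had a median log2 fold change of 0.58 over 18 tested genes, against 0.20 for all genes. Of the 18, 15 were above 0, as were 61.3% of all tested genes. None was called. An unadjusted *p* under 0.05 was reached by 6 of them, each with more in *tbx5a*+ cardiomyocytes. Of all 13895 tested genes, 642 reached it with more in *tbx5a*+ and 339 with more in *tbx5a*- cardiomyocytes, together 7.06%. *bckdk*, which encodes the kinase that inhibits branched-chain ketoacid dehydrogenase, had 1311, 1179, 1541 and 2043 units in *tbx5a*+ and 334, 1057, 752 and 1263 in *tbx5a*- libraries of pairs 2, 8, 9 and 10. Its log2 fold change was 0.96, with adjusted *p* = 0.45 from limma without the block. With it the adjusted *p* was 0.042, at a fold change short of a call. *hibch*, a valine breakdown enzyme gene, had 188, 254, 283 and 264 units in *tbx5a*+ and 74.6, 105, 83.0 and 195 in *tbx5a*- libraries, a log2 fold change of 1.195 (adjusted *p* = 0.49 from limma). Without the *tbx5a*- libraries of pairs 2 and 9 the median of the list was 0.17, against 0.036 for all genes tested in that fit.

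**Figure D4:**
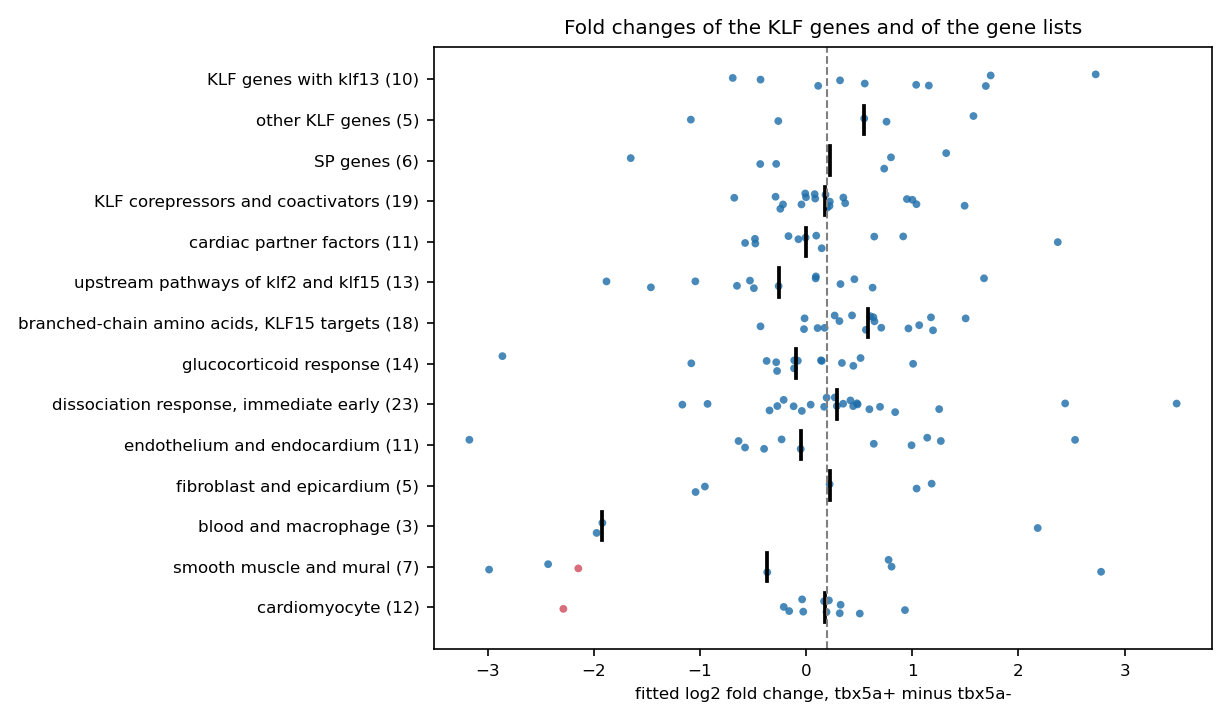
Fitted log2 fold change of each tested gene (points) of the Krüppel-like factors with *klf13* and of 13 gene lists, with the number of genes tested in brackets, the median of each list as a black bar (none for the first row, whose members were chosen on this contrast) and the median of all tested genes, 0.20, as a dashed line. Red points are the 2 called genes, a *tagln* row and *vmhc*, and all other points are blue.

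Of 23 tested immediate early genes none was called, and the median was 0.29. An unadjusted *p* under 0.05 was reached by 4, each with more in *tbx5a*+ cardiomyocytes, as by 642 of all 13895 tested genes in that direction. *myca*, a growth regulator gene, had a log2 fold change of 3.49 (adjusted *p* = 0.64 from limma) and *nr4a1*, an orphan receptor gene, of 0.70 (adjusted *p* = 0.67 from limma). Among markers of other cells, 0 of 11 endothelial, 0 of 5 fibroblast and epicardial and 0 of 3 blood genes tested were called, with limma, the block or limma-voom, and 1, 0 and 0 had an unadjusted *p* under 0.05. The endothelial factor genes *erg* (-3.17) and *fli1a* (2.53) had fold changes of opposite sign, and neither passed (adjusted *p* = 0.67 and 0.72 from limma). *erg* was at 0 in all *tbx5a*+ and *fli1a* in all *tbx5a*- libraries, so that their fitted values depend on the added 1. The epicardial genes *wt1b* (1.04) and *ALDH1A2* (1.18) and the leukocyte genes *spi1b* (2.18) and *ptprc* (-1.92) did not pass either (adjusted *p* = 0.88, 0.84, 0.75 and 0.78 from limma). The summed values of the 10 blood rows were 11.3 to 26.8 units in *tbx5a*+ and 2.37 to 223 in *tbx5a*- libraries, and those of the 15 fibroblast and epicardial rows 107 to 213 and 53.1 to 464. Of 7 smooth muscle rows, 1 was called, and it was lower in *tbx5a*+ cardiomyocytes (-2.15, adjusted *p* = 0.016 from limma). It is a *tagln* row, a symbol that more than 1 row carries. The 7 fold changes ran from -2.99 to 2.78, with 3 above 0, and 2 genes had an unadjusted *p* under 0.05 in each direction. Of 12 cardiomyocyte genes, *vmhc*, a myosin heavy chain gene, was lower in *tbx5a*+ cardiomyocytes (-2.29, adjusted *p* = 3.2e-05 from limma). The median of these 12 was 0.18, with 7 above 0, and 1 gene had an unadjusted *p* under 0.05 in each direction. The 13 cardiomyocyte rows summed to 329870 to 392850 units in *tbx5a*+ and 321660 to 385620 in *tbx5a*- libraries, so that cardiomyocyte RNA was present in both populations. Both were gated on the same *myl7* reporter, and such a sum does not measure how pure they were.

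Among 6359 other tested genes with a mean of at least 50 units, the profile of *klf13* over the 8 libraries was compared by the root mean square difference of log2 values, each gene centred on its own mean. The nearest were *efr3a* (0.36 log2 units), a membrane scaffold gene for a lipid kinase, *CC2D1A* (0.39), a signalling scaffold gene, *stk38l* (0.41), a kinase gene of the NDR family, *dnajc15* (0.46), a mitochondrial co-chaperone gene, and *scrib* (0.47), a cell polarity gene. The median of all candidates was 1.17. *efr3a* had 117, 67.7, 66.9 and 104 units in *tbx5a*+ and 16.5, 54.2, 22.5 and 44.7 in *tbx5a*- libraries of pairs 2, 8, 9 and 10. In each of the 5 genes the *tbx5a*- libraries of pairs 2 and 9 were the lowest of the 8, as in *klf13*. Their choice by likeness over these same libraries favours this, so nothing further is read from it. The Krüppel-like factors above 50 units lay farther off, *klf6a* at 1.15, the KLF11 row ENSDARG00000013794 at 1.30 and *klf9* at 1.31. *tbx5a* lay at 1.63. Profiles were centred but not scaled, so this distance holds the size of the differences as well as their pattern. The log2 fold change was 4.32 for *tbx5a* and 1.69 for *klf13*, so their distance does not measure likeness of pattern alone.

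**Figure D5:**
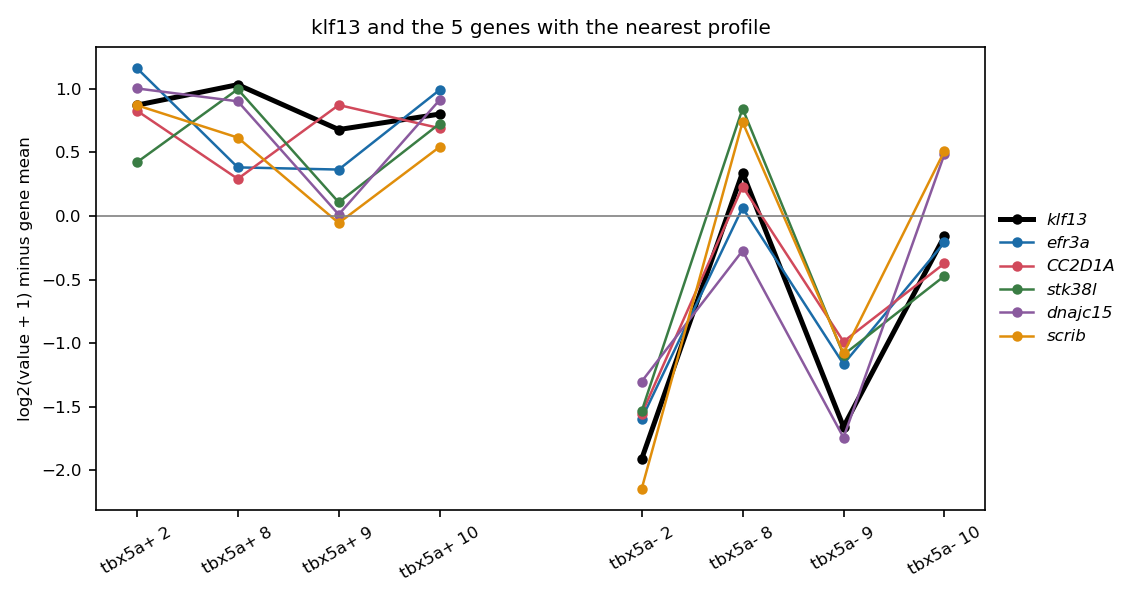
log2(value + 1) of *klf13* (black) and of the 5 genes nearest to it in profile, each minus its own mean over the 8 libraries, with *tbx5a*+ libraries left and *tbx5a*- libraries right. Lines only guide the eye, since pairs have no order. All 6 genes have their lowest points in the *tbx5a*- libraries of pairs 2 and 9, which the choice by profile favours.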

How the data were processed

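The authors made libraries from 0.6 ng of total RNA, sequenced 60-base single reads and estimated counts with RSEM. Per the methods this used cutadapt 1.9.1, RSEM v1.2.25 and Ensembl release 82, whereas the submitters' processing notes list RSEM 1.2.3, CASAVA 1.8.2 and Zv9. For lack of a settled build, coordinates are left out. The deposited values are a normalized signal, not counts: 71.1% to 77.7% of values under 60 lay within 0.0051 of a multiple of 1 step, taken as 1 read. EdgeR, which the study ran on its counts, was therefore not used.

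Genes with at least 1 CPM (value over library total) in at least 2 libraries were fitted as log2(value + 1) in limma 3.58.1 (R 4.3.3) with a variance trend and Benjamini–Hochberg adjustment over all of them. Fold changes are *tbx5a*+ minus *tbx5a*-. The added 1 shrinks those of low genes. The labels give each library a pair number and name replicates of pooled hearts; that the libraries of a pair come from the same pool is read from the sorting scheme and is not stated. Their deviations from the group means correlated at 0.043 to 0.089, each highest with its own number. No libraries were duplicates. Alternatives were the pair as a block, other pseudocounts and filters, upper quartile scaling, limma-voom on estimated reads, and libraries left out. The test among pairs was added after the data were seen.

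Members and lists were chosen with earlier results of these data known. Named genes were the members, *tbx5a*, each list's called genes (at most 5) or else its 2 lowest *p*, and the 5 nearest profiles. Others are named as chosen after their values were seen. Symbols came from Ensembl names and, for names only, the paper's gene table. Scripts were tested on simulated data; figures and tables used Python 3.11.15 (pandas 2.3.3, numpy 2.4.6, scipy 1.17.1). Limits from reads cover counting error only. Values are not per length, so levels were not compared between genes.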

Additional observations from a re-analysis of the deposited data

Results flagged for a closer look

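Among the 22 groups of 4 libraries screened for the 11 rows, 4 had a library far from the other 3, measured as its gap to the nearest over the whole range. How many groups such a screen picks by chance was not measured, so nothing is read from the count of 4. It used untransformed values, where a high library stands out more than on the log2 scale. Groups with values near 0 are picked more easily. *klf9* had 278 units in the *tbx5a*+ library of pair 10, against 42.1 to 80.5 in the other *tbx5a*+ libraries. The KLF12 row ENSDARG00000032197 had 127 units in the *tbx5a*- library of pair 9, from 107 estimated reads, against 0 to 12.02 in the other *tbx5a*- libraries. The KLF12 row ENSDARG00000015312 had 5.63 units in the *tbx5a*+ library of pair 8, against 2.02 to 2.41, and 12.4 units in the *tbx5a*- library of pair 2, against 0 to 1.43, of which the highest rests on 11.3 estimated reads.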

How the results depend on the processing

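Of all genes tested, 1 was called with more in *tbx5a*+ cardiomyocytes and 26 with more in *tbx5a*- cardiomyocytes. With the replicate block, that is with the pair in the model, the counts were 19 and 39, and *klf13* was among the 19. The count of genes higher in *tbx5a*+ cardiomyocytes was 3 with a pseudocount of 5 and 3 with limma-voom, and 1 to 8 with 1 library left out: 8 without the *tbx5a*+ library of pair 8, and 2 and 5 without the *tbx5a*- libraries of pairs 8 and 10. Without the *tbx5a*- libraries of pairs 2 and 9, 5 genes had a call with more in *tbx5a*-, and 18 to 25 did with 1 library left out. *klf13* was called in 2 of 16 alternatives, with the block and without the *tbx5a*- library of pair 8 (2.09), and its log2 fold change was 0.75 to 2.09 over all of them. 0 other Krüppel-like factor and SP genes were called in any alternative. Of 154 alternative values of the 10 rows, 9 changed sign, 2 each for *klf2a* and *klf6a*, 3 for *klf3* and 1 each for *klf9* and *klf15*. Of 207 alternative medians of the lists, 30 changed sign. *klf2a*, *klf2b*, *klf3*, *klf15* and 1 row each of KLF11 and KLF12 were not tested with at least 5 CPM in 4 libraries. Between 10 and 60 units, where most of these genes lie, 5.72% to 27.0% of tested genes were listed at 0 in a library, and such a value can set the fold change.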
